A study of Mus musculus with 95 samples.

Results

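The genes described here copy DNA and drive the cell through mitosis, together with the cyclins, kinases and inhibitors that set the pace. They were chosen by symbol: the Mcm genes, the origin recognition genes Orc1 to Orc6, the Gins and Rfc genes, Cdc6, Cdc7, Cdc20, Cdc45 and the Cdc25 phosphatases, the cyclins of classes A, B, D and E, the kinases Cdk1, Cdk2, Cdk4 and Cdk6, the inhibitors Cdkn1a, Cdkn1b and Cdkn1c, and Aurka, Aurkb, Bub1, Bub1b, Plk1, Top2a, Rrm1, Rrm2 and Tyms. Of the 59 symbols that the rule covers by name, 56 were measured, among 16464 genes in all, each with 1 probe set. The symbols Pcna, Mki67 and Ccnb1 were not analysed here. The rule uses symbols only.

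Liver RNA was hybridized to 95 Affymetrix arrays and came from male C57BL/6 mice, 10 weeks old and 21 to 27 g in weight, that received a compound or a vehicle by oral gavage. The compounds were amiodarone (AMD), an antiarrhythmic drug, at 6.7, 20 and 60 mg/kg, valproic acid (VPA), an antiepileptic drug, at 125, 250 and 500 mg/kg, and tetracycline (TET), an antibiotic, at 14.8, 44 and 133 mg/kg. Livers of the high doses were taken on days 1, 4 and 11, and those of the low and middle doses on day 11. A group had 4 arrays on day 1 or 4, or 5 on day 11, which made 15 treated and 6 vehicle groups. The vehicle was phosphate-buffered saline (PBS) for amiodarone and valproic acid, so both compounds share those controls, and milli-q water with ascorbic acid for tetracycline. Whether every array came from its own animal is not stated, so p-values here reflect the spread among these samples, which may be technical.

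Values are log2 expression, and array medians ran from 3.08 to 3.15. Of the 56 genes, 28 had a mean below the middle of these medians, 3.11, a level taken here as close to background. Differences may be compressed there, so the size of a log2 fold change measured from such a level is uncertain. All 9 measured hepatocyte markers, albumin among them, stood well above 3.11, with means from 7.88 to 13.79. The number of arrays limits the precision. A gene is called changed where limma's moderated test gave an adjusted p under 0.05 (Benjamini-Hochberg, across the 16464 genes). Changes are log2 fold changes ± SE of a treated group against the vehicle of the same day. In whole liver, more cells in cycle and more RNA per cycling cell cannot be told apart.

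Replication starts when the origin recognition complex and Cdc6 load the ring-shaped helicase Mcm2 to Mcm7 onto DNA. Kinases then switch the helicase on with Cdc45 and the Gins complex, replication factor C places the sliding clamp, and ribonucleotide reductase and thymidylate synthase supply the building blocks. D-type cyclins open the way from rest into the cycle, E-type and A-type cyclins carry it through S phase, and Cdk1 with B-type cyclins brings on mitosis. Most hepatocytes of an adult liver rest outside the cycle, and can enter it again after loss of tissue or exposure to certain drugs.

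Amiodarone at 60 mg/kg on day 4 gave the most calls of the 15 treated groups, and all 6 genes of the helicase ring rose together. Of the 56 genes, 20 rose and 1 fell, which is 37.5% of them beside 6.21% of all genes called in this comparison. Their median log2 fold change was 0.21, beside -0.01 for all genes. Mcm6 (Entrez Gene 17219), 1 subunit of the ring, read 4.69, 4.13, 4.61 and 4.61 on the amiodarone arrays and 3.07, 3.03, 2.91 and 3.17 on the PBS arrays. The groups lay far apart, although the second amiodarone array stood below the other 3. The difference was 1.47 ± 0.21, a 2.76-fold rise (adjusted p = 4.54e-07).

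Mcm4 (Entrez Gene 17217) read 4.70, 3.97, 4.45 and 4.67 with amiodarone and 3.38, 3.17, 3.46 and 3.28 with PBS, a rise of 1.12 ± 0.17 (adjusted p = 1.6e-06). Mcm7 (Entrez Gene 17220) read 6.10, 5.72, 6.09 and 6.03 against 5.49, 5.25, 5.31 and 5.37, a rise of 0.63 ± 0.15. Mcm2 (Entrez Gene 17216) read 3.54, 3.17, 3.38 and 3.59 against 2.84, 2.94, 2.73 and 2.96, a rise of 0.55 ± 0.12. The same amiodarone array, 053, was the lowest of its group in 5 of the 6 helicase genes, and array 017 was the highest in 4. Mcm5 rose by 0.45 ± 0.11 and Mcm3 by 0.36 ± 0.08. In all 6 genes every amiodarone array lay above every PBS array, and the median rise over the ring was 0.59. How many of all genes separate in this way was not counted.

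**Figure D1:**
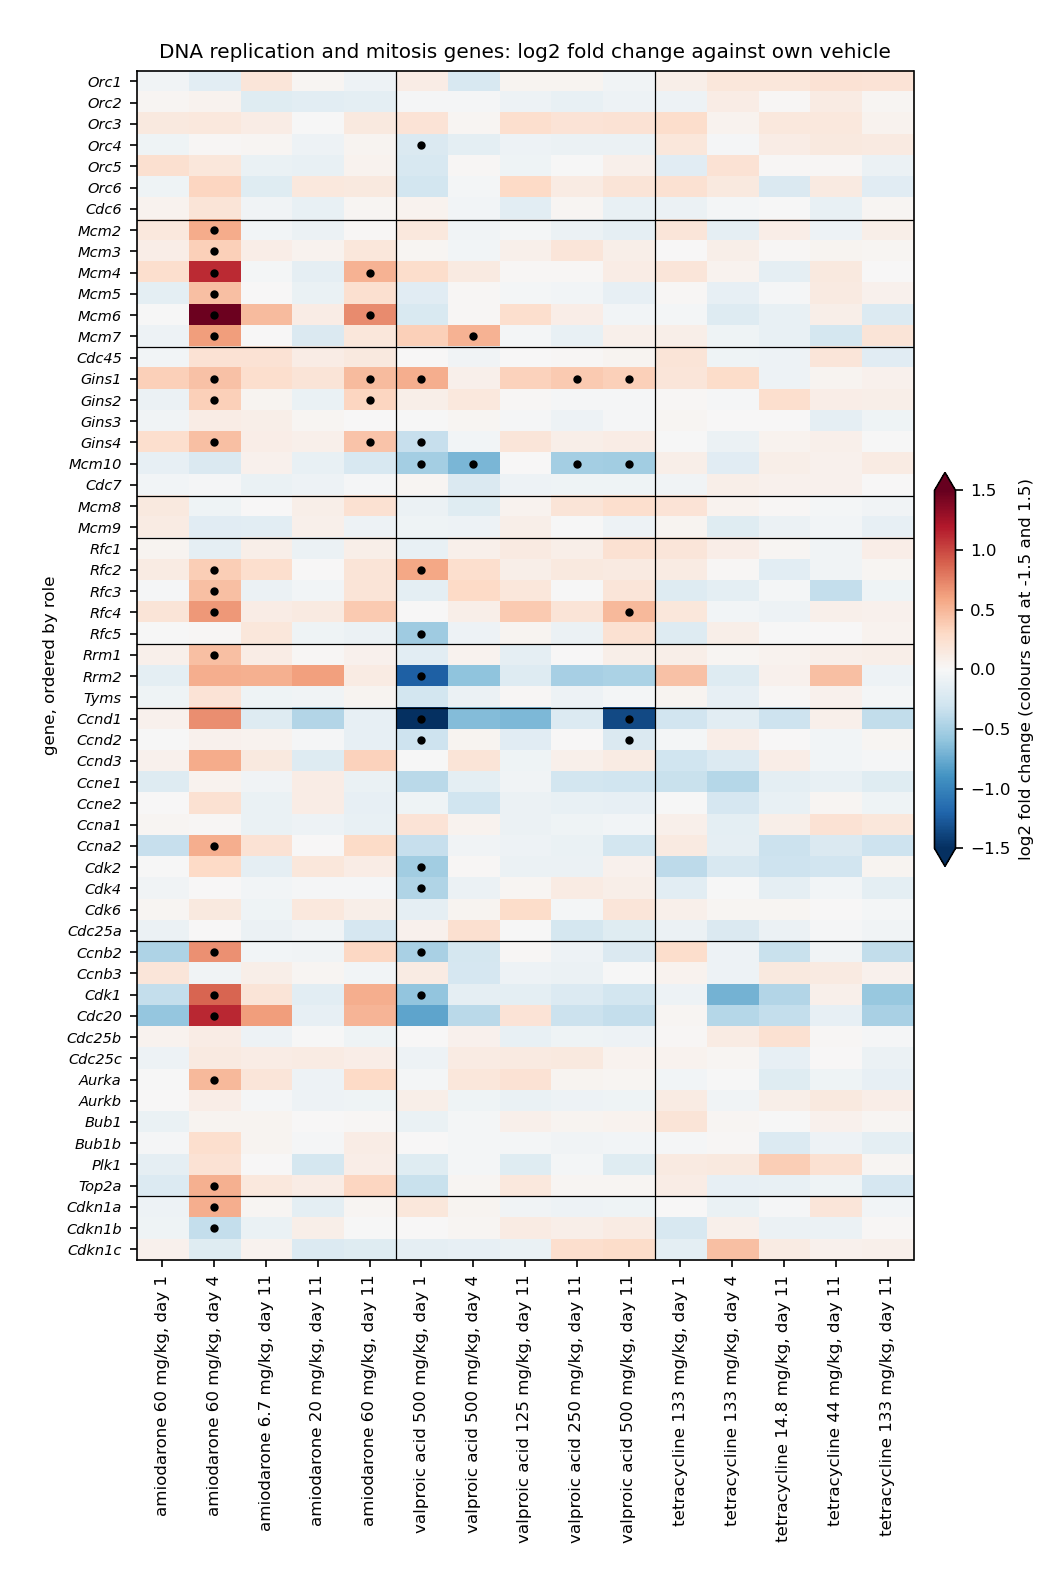
Log2 fold change of the 56 genes (rows, ordered by role and divided by lines) in each treated group against its own vehicle (columns, divided by compound). Red is higher, blue is lower, colours end at -1.5 and 1.5, and a dot marks a call at an adjusted p under 0.05. The column of amiodarone on day 4 holds 21 dots and the 5 tetracycline columns hold 0.

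None of the 7 licensing genes, Orc1 to Orc6 and Cdc6, was called by limma on day 4, and their changes ran from -0.16 for Orc1 to 0.32 ± 0.18 for Orc6. Cdc6 stood 0.20 ± 0.12 higher (adjusted p = 0.438). Of the 7 genes that activate the helicase, 3 subunits of the Gins complex rose: Gins4 by 0.45 ± 0.09, Gins1 by 0.44 ± 0.13 and Gins2 by 0.36 ± 0.09. The fourth, Gins3, differed by 0.11 ± 0.08, and Cdc45 by 0.21 ± 0.12, neither past the test. Mcm10, which helps to start the fork, and Cdc7, a kinase that switches the helicase on, gave -0.22 ± 0.18 and -0.02 ± 0.07. Mcm8 and Mcm9, which act in repair of DNA breaks and not in the ring, gave -0.07 ± 0.13 and -0.17 ± 0.11.

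Among the clamp loader genes, Rfc4, Rfc3 and Rfc2 rose and Rfc1 and Rfc5 were not called. Rfc4 (Entrez Gene 106344) read 4.21, 3.98, 4.13 and 3.65 with amiodarone and 3.39, 3.28, 3.18 and 3.51 with PBS, a rise of 0.65 ± 0.16 (adjusted p = 0.0029). The groups did not overlap, but the lowest amiodarone array stood close to the highest PBS array. Rfc3 rose by 0.45 ± 0.14 and Rfc2 by 0.36 ± 0.10. Rrm1, the large subunit of ribonucleotide reductase, rose by 0.46 ± 0.10. Rrm2, the small subunit, read 5.68, 5.04, 4.86 and 4.69 against 4.67, 4.30, 4.71 and 4.42, groups that overlapped, and its difference of 0.54 ± 0.23 did not pass (adjusted p = 0.185). Tyms differed by 0.21 ± 0.11 (adjusted p = 0.329).

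Of the 12 genes of mitosis, 5 rose. Cdc20 (Entrez Gene 107995), which activates the anaphase-promoting complex, read 5.11, 5.11, 4.42 and 4.40 with amiodarone and 3.90, 3.29, 3.76 and 3.59 with PBS. The amiodarone arrays formed a higher and a lower pair, both above all PBS arrays. The rise was 1.13 ± 0.33, or 2.19-fold (adjusted p = 0.0198). Cdk1 (Entrez Gene 12534), the kinase of mitotic entry, read 4.22, 3.92, 3.82 and 3.73 against 3.15, 3.14, 3.05 and 2.84, a rise of 0.88 ± 0.21 (adjusted p = 0.00296). Ccnb2 (Entrez Gene 12442), a cyclin partner of Cdk1, read 3.53, 2.98, 3.21 and 3.04 against 2.65, 2.35, 2.72 and 2.28, a rise of 0.69 ± 0.17 (adjusted p = 0.00439). Neither gene's groups overlapped.

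Top2a, the topoisomerase that untangles sister chromosomes, rose by 0.53 ± 0.14 and Aurka, a kinase of the spindle poles, by 0.49 ± 0.14. Top2a read 3.15, 3.77, 3.13 and 2.88 with amiodarone and 2.77, 2.53, 2.74 and 2.75 with PBS, so that 1 amiodarone array carried much of the difference. Without that array, 053, the adjusted p was 0.145. The checkpoint kinase genes Bub1b and Bub1 differed by 0.26 ± 0.09 (adjusted p = 0.0665) and 0.04 ± 0.08, and Plk1, Aurkb, Ccnb3, Cdc25b and Cdc25c were not called either.

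Of the 11 cyclin, kinase and phosphatase genes of the G1 and S phases only Ccna2, the S phase cyclin, was called, with a rise of 0.55 ± 0.14 (adjusted p = 0.00478). Ccnd1 (Entrez Gene 12443), the cyclin D1 gene, read 7.64, 7.34, 7.99 and 7.85 with amiodarone and 6.87, 7.23, 7.23 and 6.72 with PBS. All treated arrays were higher, yet the difference of 0.69 ± 0.25 missed the threshold (adjusted p = 0.0867), and the call depended on the setting: it passed with array weights, in a fit of only the arrays compared and with dim genes left out (lowest adjusted p = 0.0245). Ccnd3 differed by 0.56 ± 0.19 (adjusted p = 0.0664), Cdk2 by 0.30 ± 0.14 and Ccne2 by 0.23 ± 0.14, and the remaining members of this group by at most 0.14 in size, as for Cdk6.

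The inhibitors went both ways. Cdkn1a (Entrez Gene 12575), the p21 gene, which a damaged or stressed cell uses to halt the cycle, read 3.29, 3.38, 3.46 and 3.02 with amiodarone and 2.66, 2.77, 2.73 and 2.81 with PBS. The groups were apart, and the rise was 0.55 ± 0.09 (adjusted p = 1.08e-05). Cdkn1b, the p27 gene, which holds resting cells out of the cycle, fell by 0.36 on the log2 scale (SE 0.12, adjusted p = 0.0455), with values of 3.31, 2.99, 2.89 and 2.83 against 3.16, 3.56, 3.39 and 3.36 that overlapped. Cdkn1c, the p57 gene, gave -0.18 ± 0.18.

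Of the 20 genes that rose on day 4, 11 had a PBS mean below the array median (Mcm2, Mcm3, Mcm5, Mcm6, Gins2, Ccna2, Ccnb2, Cdk1, Aurka, Top2a and Cdkn1a), so the sizes of their rises are uncertain. Of the 21 calls, 14 remained whichever single array was left out. Cdc20 was lost without array 017, 053 or 041, Aurka without 017 or 040, Gins2 without 017, Top2a without 053, and Gins1, Rfc3 and Cdkn1b each without 5 or 6 of the 8 arrays. Aurka, Top2a, Rfc3 and Cdkn1b were also lost in a fit of only the arrays compared, and Gins1 and Cdkn1b with blocks of sample numbers. Rfc3 was lost with quantile normalization too, and Cdkn1b with each array centred on its median (highest adjusted p of Cdkn1b over these settings = 0.145). The count itself stayed between 17 and 20.

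**Figure D2:**
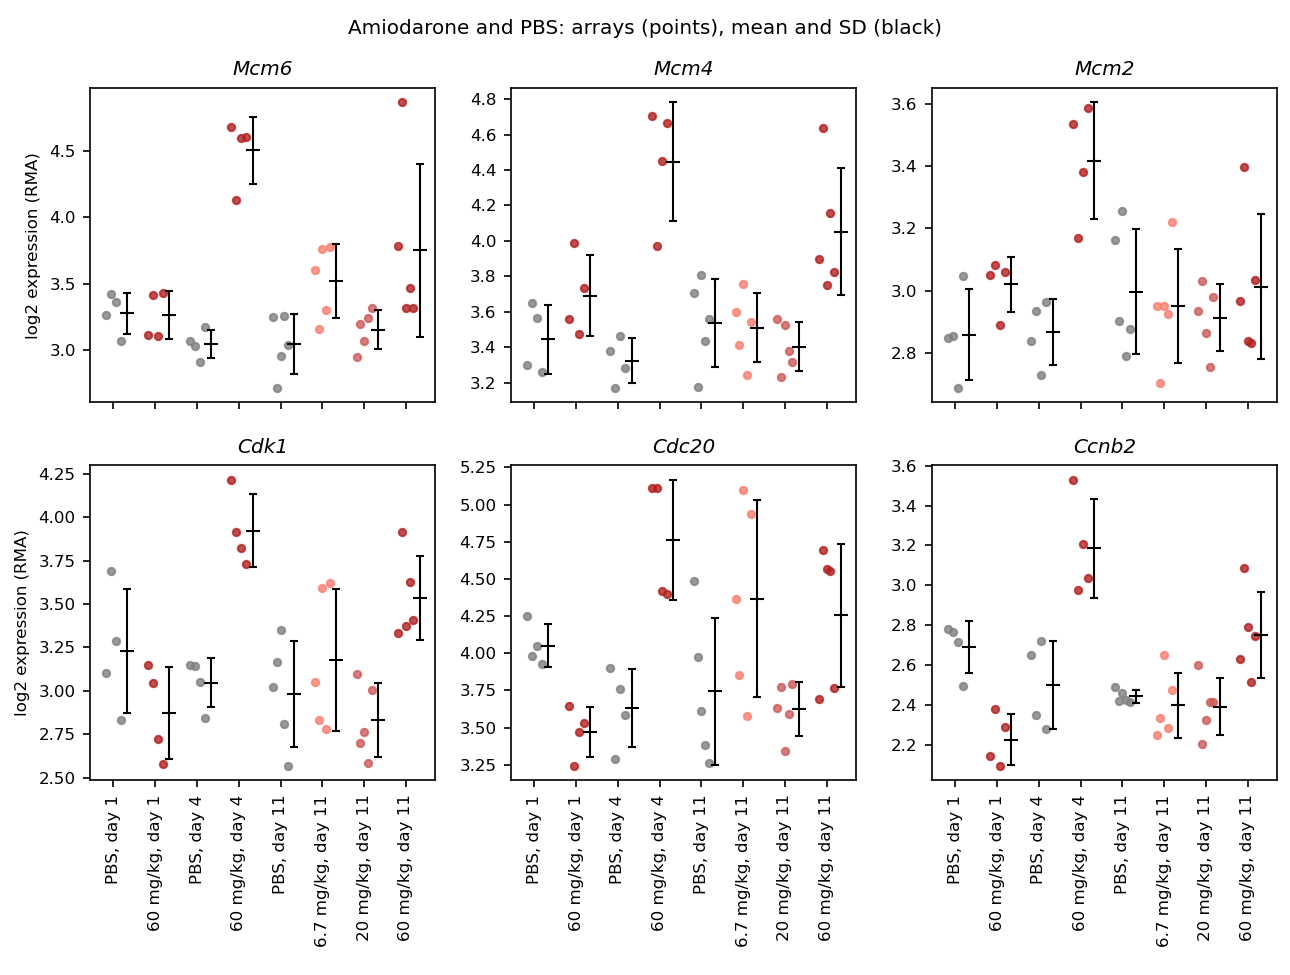
Log2 expression (vertical axis) of Mcm6, Mcm4, Mcm2, Cdk1, Cdc20 and Ccnb2 on every array of the amiodarone groups (red shades) and PBS groups (grey), with mean and SD in black. The arrays of 60 mg/kg on day 4 lie above the PBS arrays of that day in all 6 panels, and the Mcm6 panel shows 1 high array, 4.87, at 60 mg/kg on day 11.

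Promoters of 4 genes are shown because they belong to the called members with the largest rises for which a sequence was at hand. Sequences of 250 bases before to 50 after the start site come from the RefSeq table (GRCm38.p6), which held 44 of the 56 genes and 32851 promoters in all. Each is printed 5′ to 3′ on the gene's own strand, which is the minus strand for all 4, and capitals mark matches, on either strand, to 3 kinds of motif. These are E2F-type motifs (TTTCCCGC, TTTCGCGC, TTTGCCGC or TTTGGCGC), the cell cycle homology region (TTTGAA) and the CCAAT box (CCAAT), and no other letters were searched.
Mcm6 at chr1:128359656-128359955: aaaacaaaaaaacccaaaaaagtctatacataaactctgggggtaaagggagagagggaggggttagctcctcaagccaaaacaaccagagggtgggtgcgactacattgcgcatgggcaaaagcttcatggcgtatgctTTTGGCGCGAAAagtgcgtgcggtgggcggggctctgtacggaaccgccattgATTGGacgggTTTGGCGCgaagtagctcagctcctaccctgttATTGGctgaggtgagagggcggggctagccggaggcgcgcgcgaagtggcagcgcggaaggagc
Cdc20 at chr4:118437294-118437593: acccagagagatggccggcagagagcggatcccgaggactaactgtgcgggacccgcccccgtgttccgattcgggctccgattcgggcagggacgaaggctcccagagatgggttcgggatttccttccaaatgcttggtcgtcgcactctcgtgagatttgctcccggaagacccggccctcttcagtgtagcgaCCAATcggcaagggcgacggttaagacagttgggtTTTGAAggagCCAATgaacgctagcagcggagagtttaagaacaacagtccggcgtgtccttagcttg
Cdk1 at chr10:69352863-69353162: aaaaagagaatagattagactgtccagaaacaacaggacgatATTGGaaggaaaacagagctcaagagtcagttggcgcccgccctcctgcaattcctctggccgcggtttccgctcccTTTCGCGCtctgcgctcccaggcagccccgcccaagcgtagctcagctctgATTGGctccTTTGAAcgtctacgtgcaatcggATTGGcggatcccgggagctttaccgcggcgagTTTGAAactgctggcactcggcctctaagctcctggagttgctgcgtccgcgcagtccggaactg
Ccnb2 at chr9:70421505-70421804: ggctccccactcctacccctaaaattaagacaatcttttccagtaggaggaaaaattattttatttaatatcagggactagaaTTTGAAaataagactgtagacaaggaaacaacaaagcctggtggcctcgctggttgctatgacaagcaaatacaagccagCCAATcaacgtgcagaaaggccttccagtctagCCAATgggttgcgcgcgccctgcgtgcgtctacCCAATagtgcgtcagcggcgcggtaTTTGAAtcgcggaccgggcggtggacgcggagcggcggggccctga
Mcm6 held 3 E2F-type matches, of which 1 pair overlaps on opposite strands, and 2 CCAAT boxes. Cdk1 held matches to all 3 kinds, and Cdc20 and Ccnb2 held the homology region and CCAAT boxes but no E2F-type match in this window.

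Over the promoters of the same length, E2F-type letters stood in 2.26% of all 32851 and in 25.5% of the 51 promoters of members, namely in Mcm3, Mcm5, Mcm6, Mcm7, Mcm8, Orc1, Orc3, Cdc6, Cdc25a, Cdk1, Cdk2, Gins3 and Rfc3. CCAAT stood in 37.4% of all and 66.7% of members, and TTTGAA in 17.9% and 23.5%. Of the 15 members called with amiodarone on day 4 that have a sequence, 6 held an E2F-type match and 6 the homology region. Of the 29 not called, 7 and 5 did. These are descriptions of letters in a window, and some genes contribute several promoters.

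On day 1 the same dose gave no call. With limma 0 of the 56 were called, beside 0.796% of all genes, and 6 had an unadjusted p under 0.05 (10.7%, beside 9.14% of all genes). Among these, Ccnb2 read 2.15, 2.38, 2.10 and 2.29 with amiodarone and 2.78, 2.77, 2.72 and 2.50 with PBS, a difference of -0.46 ± 0.17 (adjusted p = 0.273). Gins4 and Gins1 stood 0.25 ± 0.09 and 0.35 ± 0.13 higher, also short of the threshold. Mcm6 gave -0.01 ± 0.21.

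The response on day 4 was tested against that on day 1 directly, each relative to its own PBS group. In this comparison 6 of the 56 genes were called, all more positive on day 4, beside 0.541% of all genes. Mcm6 was 1.48 ± 0.30 more positive (adjusted p = 0.00473), Cdk1 1.23 ± 0.30, Ccnb2 1.15 ± 0.24, Ccna2 0.90 ± 0.19, Top2a 0.74 ± 0.19 and Cdkn1a 0.63 ± 0.13. Cdk1, Ccnb2 and Ccna2 stood on the negative side on day 1, where none was called, and on the positive side on day 4. The largest difference of all, 1.71 ± 0.46 for Cdc20, did not pass (adjusted p = 0.0645). The call of Top2a was lost without any of 12 of the 16 arrays, and that of Cdk1 without any of 6. Cdkn1a lost its call in a fit of only the arrays compared (adjusted p = 0.0675).

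By day 11 at 60 mg/kg, 5 genes were called, all higher, beside 7.05% of all genes, so 8.93% of members is close to that background. Gins1 (Entrez Gene 69270) read 4.21, 4.62, 4.34, 4.21 and 4.39 with amiodarone and 3.94, 3.92, 3.90, 3.84 and 3.81 with PBS, a rise of 0.47 ± 0.12 (adjusted p = 0.00318). Gins4 (Entrez Gene 109145) read 7.50, 7.74, 7.73, 7.63 and 7.40 against 7.31, 7.11, 7.02, 7.29 and 7.13, a rise of 0.43 ± 0.08 (adjusted p = 7.13e-05). Both genes encode subunits of the Gins complex, and neither gene's groups overlapped. Gins2 rose by 0.32 ± 0.08 and Mcm4 by 0.52 ± 0.15, with groups that overlapped.

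Mcm6 read 3.79, 4.87, 3.31, 3.47 and 3.32 with amiodarone on day 11 and 3.24, 2.71, 2.95, 3.26 and 3.04 with PBS. The second amiodarone array, 031, stood far above the other 4, and it was the highest of its group in all 6 helicase genes. The rise was 0.71 ± 0.19 (adjusted p = 0.00944), and without array 031 it was 0.43 with an adjusted p of 0.189. The calls of Mcm4 and Gins2 were lost without that array too, which left 2 of the 5, and in a fit of only the arrays compared. Cdk1 gave 0.55 ± 0.19 (adjusted p = 0.0585) and Ccnd1 -0.12 ± 0.22.

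No gene was called for the difference between days 11 and 4 of the high dose, beside 0% of all genes, and 8 had an unadjusted p under 0.05 (14.3%, beside 5.87% of all genes). Of these, Cdkn1a gave -0.52 ± 0.12, Mcm2 -0.54 ± 0.16 and Mcm6 -0.76 ± 0.29, all less positive on day 11 (adjusted p = 0.379, 0.647 and 0.794). Their values therefore do not show a fall after day 4 that passes the test.

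Lower doses of amiodarone gave no calls on day 11. At 6.7 mg/kg limma called 0 of the 56, beside 0% of all genes, with 7 at an unadjusted p under 0.05 (12.5%, beside 4.71% of all genes). At 20 mg/kg it called 0 beside 0.322%, with 2 (3.57%, beside 11.1%). Mcm6 read 3.60, 3.15, 3.76, 3.30 and 3.78 at the low dose and 2.95, 3.19, 3.06, 3.24 and 3.32 at the middle dose, groups that overlapped. The slope over the 4 dose ranks was called for 3 genes, all rising, beside 7.02% of all genes. These were Gins1 at 0.14 ± 0.04 per rank, Gins4 at 0.13 ± 0.03 and Gins2 at 0.08 ± 0.03. Gins1 and Gins2 lost the call without array 031, while 5 and 6 genes were called without arrays 033 and 062.

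Valproic acid at 500 mg/kg on day 1 lowered a set of genes led by cyclin D1, and it raised 2. It called 13 of the 56, 11 lower and 2 higher, which is 23.2% of them beside 15.7% of all genes. Ccnd1 read 5.25, 5.36, 6.30 and 5.68 with valproic acid and 7.20, 8.09, 7.61 and 7.57 with PBS. Every treated array lay below every control array, and the level fell by 1.97 on the log2 scale (SE 0.25, adjusted p = 1.39e-09), to 0.255 of the vehicle level. Ccnd2, a second D-type cyclin, fell by 0.31 (SE 0.07), and Ccnd3 gave -0.01 ± 0.19. Their kinase partner Cdk4 fell by 0.45 (SE 0.11), while Cdk6 gave -0.13 ± 0.11.

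Rrm2 (Entrez Gene 20135), the regulated subunit of ribonucleotide reductase, read 3.33, 3.46, 3.52 and 3.89 with valproic acid and 5.14, 4.59, 4.66 and 4.74 with PBS. It fell by 1.23 (SE 0.23, adjusted p = 2.43e-05), and the groups were well apart. Its partner Rrm1 gave -0.15 ± 0.10 and Tyms -0.27 ± 0.11 (adjusted p = 0.0805). Cdk2, the S phase kinase, fell by 0.52 (SE 0.14), with groups that overlapped and a call that was lost in a fit of only the arrays compared (adjusted p = 0.11). Its cyclins Ccne1 and Ccna2 gave -0.40 ± 0.15 (adjusted p = 0.0583) and -0.34 ± 0.14 (adjusted p = 0.0793).

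In the helicase and its helpers the picture was mixed. None of the 6 helicase genes was called, with changes from -0.22 for Mcm6 to 0.35 ± 0.15 for Mcm7. Gins1 read 4.54, 4.88, 4.30 and 4.41 with valproic acid and 4.12, 3.74, 4.06 and 4.04 with PBS, a rise of 0.55 ± 0.13 (adjusted p = 0.000949). Gins4, of the same complex, fell by 0.35 (SE 0.09), so 2 subunits of one complex changed in opposite directions. Mcm10 (Entrez Gene 70024) read 7.91, 7.97, 7.97 and 7.87 against 8.36, 8.41, 8.43 and 8.53 and fell by 0.50 (SE 0.18, adjusted p = 0.0368). The arrays of each Mcm10 group lay close together, yet the call was lost without any 1 of the 8 arrays.

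The clamp loader also split. Rfc2 (Entrez Gene 19718) read 6.53, 6.23, 6.47 and 6.32 with valproic acid and 5.79, 5.92, 5.79 and 5.75 with PBS, a rise of 0.58 ± 0.10 (adjusted p = 1.67e-06). Rfc5 (Entrez Gene 72151) read 5.91, 5.50, 6.11 and 5.77 against 6.41, 6.25, 6.37 and 6.38 and fell by 0.53 (SE 0.16). In both genes the groups were apart, in opposite directions. The call of Rfc5 was lost without array 079 (adjusted p = 0.0992). Of the licensing genes only Orc4 was called, lower by 0.22 (SE 0.07), and not without array 003 or 095, nor in a fit of only the arrays compared (adjusted p = 0.138).

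Of the mitosis genes 2 fell on day 1 of valproic acid. Cdk1 read 2.71, 2.54, 2.53 and 2.75 with valproic acid and 3.10, 3.69, 3.29 and 2.83 with PBS, lower by 0.60 (SE 0.21, adjusted p = 0.0382). Ccnb2 read 2.28, 2.18, 2.00 and 2.36 against 2.78, 2.77, 2.72 and 2.50, lower by 0.48 (SE 0.17, adjusted p = 0.0386). Both treated means lay below the array median, so the sizes of these falls are uncertain. Both calls were lost without any of 5 of the 8 arrays, with array weights and with blocks of sample numbers. Cdc20 gave -0.79 ± 0.33 and Top2a -0.33 ± 0.14 (adjusted p = 0.0937 and 0.0955). None of the inhibitors was called, with Cdkn1a at 0.17 ± 0.09, Cdkn1b at 0.01 ± 0.12 and Cdkn1c at -0.14 ± 0.18.

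**Figure D3:**
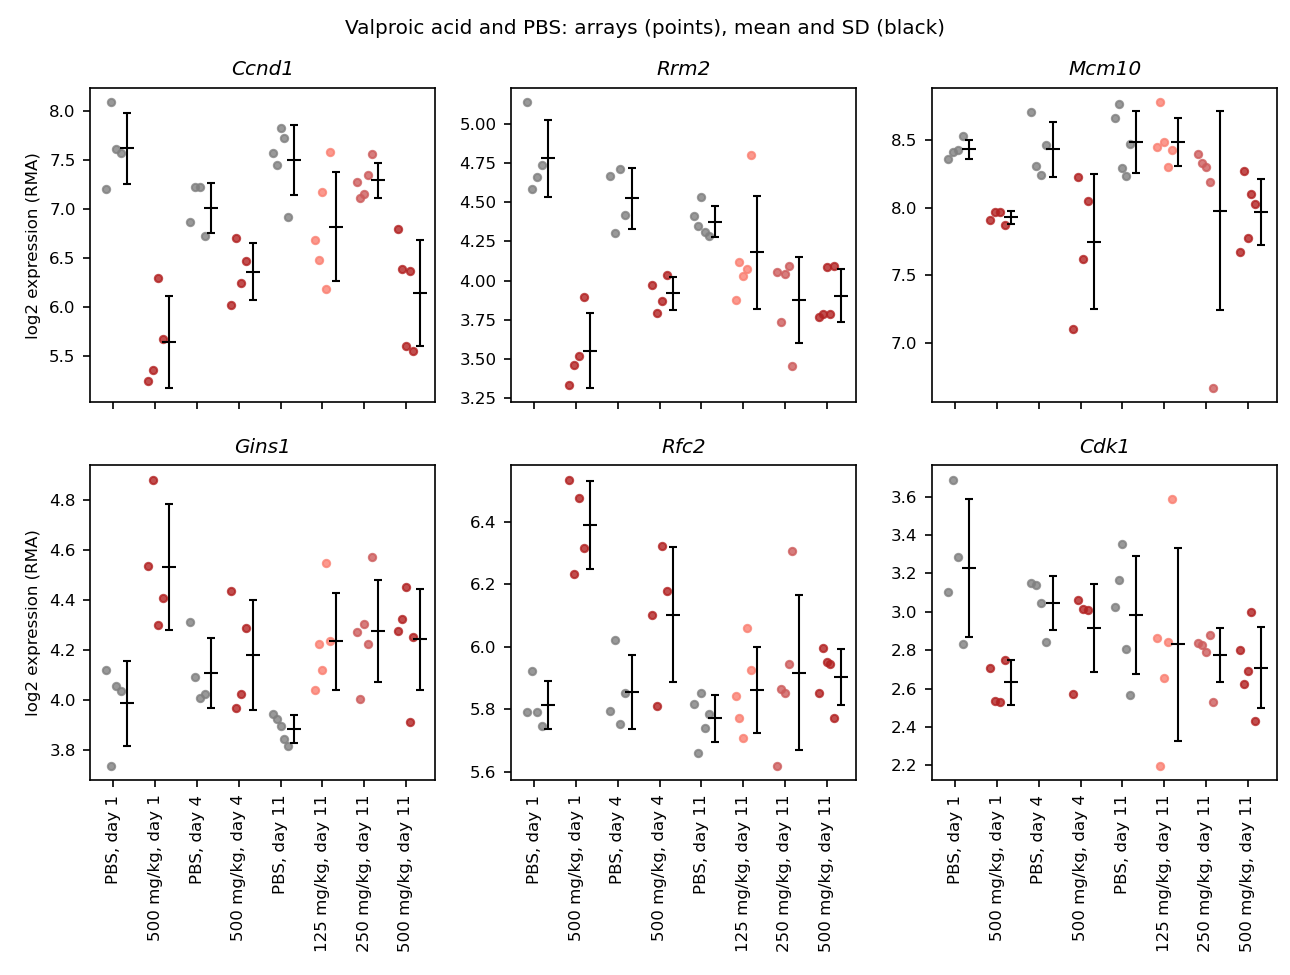
Log2 expression (vertical axis) of Ccnd1, Rrm2, Mcm10, Gins1, Rfc2 and Cdk1 on every array of the valproic acid groups (red shades) and PBS groups (grey), with mean and SD in black. The means of Ccnd1 and Rrm2 are lowest at 500 mg/kg on day 1, those of Gins1 and Rfc2 are highest there, and 1 array at 250 mg/kg on day 11 reads 6.67 for Mcm10.

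Fewer of the genes were called on later days. On day 4, 2 of the 56 genes were called, beside 2.36% of all genes: Mcm10 fell by 0.68 (SE 0.18) and Mcm7 rose by 0.52 ± 0.15. Mcm10 read 7.10, 8.23, 7.62 and 8.05 with valproic acid and 8.71, 8.31, 8.25 and 8.46 with PBS, groups that did not overlap. Its call was lost without array 004, 068 or 040, and that of Mcm7 without any of 7 of the 8 arrays, so no call was left without array 004 or 068 and 1 without 040, 041, 044, 087 or 092. Ccnd1 gave -0.65 ± 0.25 (adjusted p = 0.184) and Rrm2 -0.61 ± 0.23 (adjusted p = 0.182).

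The fall of Ccnd1 and Ccnd2, relative to PBS of the same day, was weaker on day 4 than on day 1 by a direct test. There 2 genes were called, beside 6.07% of all genes, with the change of Ccnd1 1.32 ± 0.35 more positive on day 4 (adjusted p = 0.0101) and that of Ccnd2 0.36 ± 0.11 (adjusted p = 0.0247). Part of the Ccnd1 difference lies in the vehicle, since Ccnd1 with PBS changed by -0.61 from day 1 to day 4, without a call. The call of Ccnd2 was lost without array 040, 050 or 095, and the count was 1 without 040. Between days 11 and 4, limma called 0 members, beside 2.06% of all genes, and 6 had an unadjusted p under 0.05 (10.7%, beside 13.3% of all genes), with 1 called without array 008 or 087.

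At 500 mg/kg on day 11, 3 genes fell and 2 rose, 8.93% of members beside 9.03% of all genes. Ccnd1 read 6.80, 6.39, 5.61, 6.37 and 5.56 with valproic acid and 7.58, 7.45, 7.83, 7.73 and 6.92 with PBS. The groups were apart, and Ccnd1 fell by 1.35 (SE 0.22, adjusted p = 6.32e-06), the 1 call of the 5 that remained whichever array was left out. Mcm10 fell by 0.52 (SE 0.16) and Ccnd2 by 0.22 (SE 0.07), while Rfc4 rose by 0.49 ± 0.14 and Gins1 by 0.36 ± 0.12. Ccnd2, which read 3.59 to 3.95 against 3.96 to 4.12, was the other called gene whose groups did not overlap. The count was 2 without array 006 or 049 and 3 without 032, 073 or 081.

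At 250 mg/kg on day 11 Mcm10 fell and Gins1 rose, beside 4.26% of all genes. Mcm10 read 8.40, 8.33, 8.30, 8.19 and 6.67 against 8.67, 8.77, 8.29, 8.24 and 8.47, so that 1 array, 067, carried the fall of 0.51 (SE 0.16). Without it the adjusted p was 0.603. Gins1 rose by 0.39 ± 0.12 and lost the call without any of 5 arrays, among them 067, and neither gene was called without array 067 or 090. Without 002, 020, 032, 051 or 073, 1 gene was called. At 125 mg/kg limma called 0 members, beside 0.0547% of all genes, with 7 at an unadjusted p under 0.05 (12.5%, beside 8.75%), and Ccnd1 gave -0.68 ± 0.22 (adjusted p = 0.256).

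The slope over dose ranks of valproic acid was called for 3 genes, beside 9.94% of all genes. It was -0.36 ± 0.07 per rank for Ccnd1, -0.21 ± 0.05 for Mcm10 and 0.11 ± 0.04 for Gins1, and 5 genes were called without array 037. Gins1 lost the call without any of 8 of the 20 arrays and with quantile normalization, and Mcm10 in a fit of only the arrays compared (adjusted p = 0.101). Ccnd1 did not follow the ranks step by step, since its mean was 7.50 with PBS, 6.82 at the low, 7.29 at the middle and 6.15 at the high dose (SD 0.36, 0.55, 0.18 and 0.54, n = 5 each). Gins1 was called higher on day 11 with both amiodarone and valproic acid, and both comparisons used the same 5 PBS arrays.

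Tetracycline at 133 mg/kg gave no call on any day. Limma called 0 of the 56 on day 1, beside 0.65% of all genes, and 0 on days 4 and 11, beside 0% each, with 6, 6 and 5 members at an unadjusted p under 0.05. Those are 10.7%, 10.7% and 8.93% of members, beside 11.3%, 8.42% and 5.39% of all genes. The low and middle doses gave 0 as well, beside 0% and 0.0243%, with 9 and 8 members at an unadjusted p under 0.05 (16.1% and 14.3%, beside 6.52% and 10.1% of all genes). The slope over dose gave 0, beside 0%, with 2 (3.57%, beside 5.37%). Differences between days gave 0 beside 0% for days 4 and 1, with 4 (7.14%, beside 7.62%), and 0 beside 0% for days 11 and 4, with 2 (3.57%, beside 6.69%).

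The lowest adjusted p of a member under tetracycline was 0.176, for Cdk2 at 133 mg/kg on day 1 (-0.39 ± 0.14). Cdk1 had the largest difference. It read 2.49, 2.61, 3.17 and 2.56 at 133 mg/kg on day 4 and 3.52, 3.39, 3.34 and 3.41 with the vehicle. The groups did not overlap, but the difference of -0.71 ± 0.21 did not pass over all genes (adjusted p = 0.217). On day 11 it gave -0.57 ± 0.19 at the high dose (adjusted p = 0.808), where Ccnb2 gave -0.37 ± 0.15 and Ccna2 -0.31 ± 0.12.

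Amiodarone and valproic acid were compared directly at their high doses, 60 and 500 mg/kg, which are not matched in amount. On day 4, 18 genes were higher with amiodarone and 1 was lower, 33.9% of members beside 8.55% of all genes. Cdc20 was higher by 1.53 ± 0.33, Mcm6 by 1.45 ± 0.21 and Ccnd1 by 1.34 ± 0.25, and Rrm2, Cdk1, Mcm4 and Ccnb2 by 0.96 to 1.15. Ccne2, the second E-type cyclin, differed here, by 0.53 ± 0.14 (adjusted p = 0.00477), but not past the test without array 093 or in a fit of only the arrays compared. Cdkn1b was the gene that stood lower, at -0.39 ± 0.12, and its call was lost without any of 4 of the 8 arrays and in that fit (adjusted p = 0.159).

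On day 1, 8 genes were higher with amiodarone and 3 lower, beside 16.2% of all genes. Ccnd1 stood 2.03 ± 0.25 higher, or 4.09-fold, and Rrm2 1.08 ± 0.23 higher, while Rfc2 was lower at -0.46 ± 0.10. Orc5, an origin recognition gene not called against PBS with either compound, was 0.48 ± 0.11 higher with amiodarone (adjusted p = 0.000514). Without array 079 the count was 7. On day 11, 8 genes were higher with amiodarone, beside 8.06% of all genes, among them Ccnd1 by 1.24 ± 0.22, Cdk1 by 0.82 ± 0.19, Mcm6 by 0.75 ± 0.19 and Ccna2 by 0.57 ± 0.12. Without array 031 the count was 5, and Mcm6 was no longer called.

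**Figure D4:**
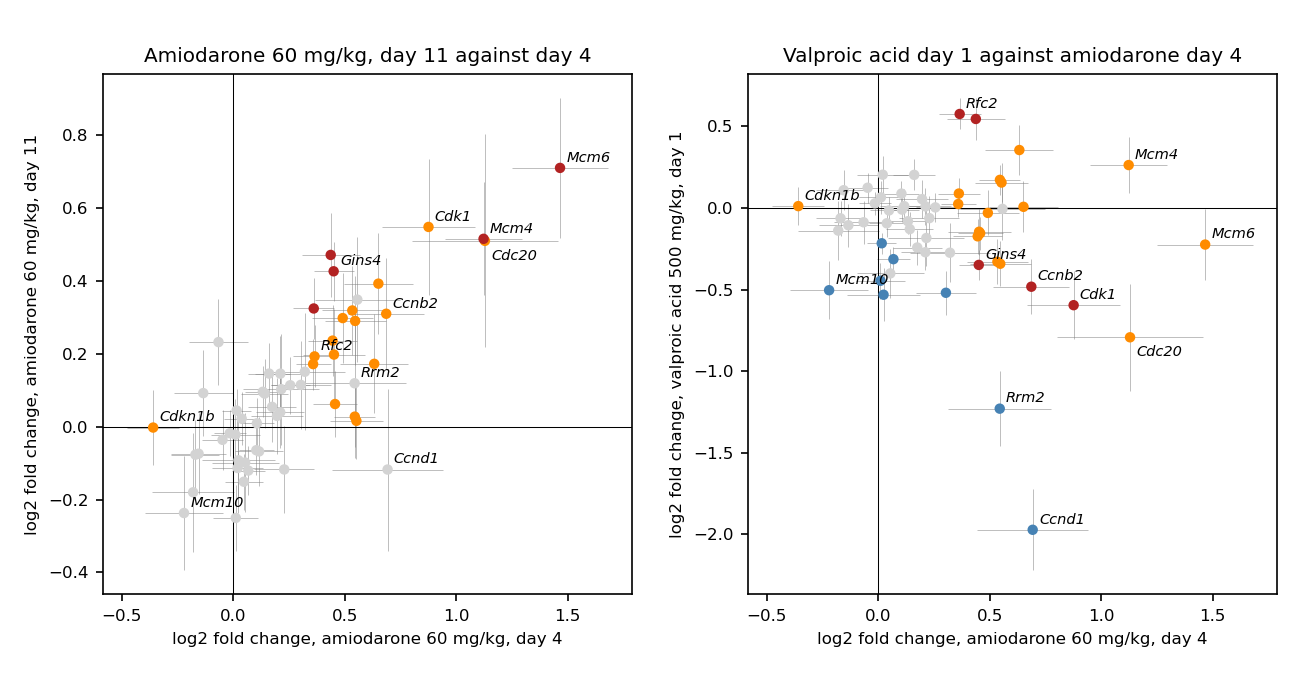
Log2 fold changes ± SE of the 56 genes. Left: amiodarone 60 mg/kg on day 11 (vertical) against day 4 (horizontal). Right: valproic acid 500 mg/kg on day 1 (vertical) against amiodarone on day 4 (horizontal). Red points are called in both comparisons, orange in the horizontal one, blue in the vertical one and grey in neither. The comparisons of a panel use different PBS arrays. Cdk1, Ccnb2 and Gins4 lie at the right and below 0 in the right panel.

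The vehicles themselves gave no call. Tetracycline's vehicle against PBS gave 0 members with limma on days 1, 4 and 11, beside 0.0911%, 0.0121% and 0% of all genes, with 4 at an unadjusted p under 0.05 each time (7.14%, beside 9.66%, 6.82% and 8.55% of all genes). PBS on day 4 against day 1 gave 0 beside 0.0121%, with 3 (5.36%, beside 6.12%), and on day 11 against day 4 gave 0 beside 0%, with 4 (7.14%, beside 8.16%). Ccnd1 with PBS was 0.61 ± 0.25 lower on day 4 than on day 1, and Mcm6 was 0.51 ± 0.21 higher with tetracycline's vehicle than with PBS on day 4 (adjusted p = 0.728 and 0.624). Over the 6 helicase genes this day 4 difference between the vehicles had a median of 0.28, from 0.02 to 0.51, and none was called. With PBS their median change was -0.15 from day 1 to day 4 and 0.12 from day 4 to day 11, again without a call. These day 4 PBS arrays are also the controls of the amiodarone rise on day 4. How far their level enters that rise was not tested.

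Arrays of one group still differed in these genes, and helicase genes differed together. After each group's mean was taken out, the 15 pairs of helicase genes correlated with a median r of 0.56 over the 95 arrays, from 0.37 to 0.71, beside 0.04 for all 1540 pairs of members. The highest were Cdk1 with Cdc20 at 0.73, Ccna2 with Cdc20 at 0.71 and Mcm5 with Mcm6 at 0.71. Mcm6 correlated at 0.41 with Cdk1, 0.29 with Ccnd1 and 0.11 with Cdkn1a. All values come from 1 joint normalization, and what sets these correlations was not tested.

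Other genes of replication and mitosis, from lists that exclude the 56, are given for context. Of 43 further S phase genes, 10 rose and 0 fell with amiodarone on day 4, led by the primase gene Prim1 (0.73 ± 0.16), Cdt1, which loads the helicase (0.68 ± 0.15), the DNA ligase gene Lig1 (0.58 ± 0.18) and the repressor gene E2f8 (0.57 ± 0.16), with a median of 0.18. Of 53 further mitosis genes, 14 rose and 0 fell, led by Spc25 of the kinetochore (1.58 ± 0.26), the kinase gene Nek2 (1.25 ± 0.27), the spindle checkpoint gene Mad2l1 (1.10 ± 0.23) and Birc5, which encodes survivin (1.05 ± 0.17), with a median of 0.14. On day 11 of the high dose 5 S phase genes rose, and 5 mitosis genes rose and 1 fell, with Spc25 at 1.48 ± 0.23. The lists' shares called were 23.3% and 26.4% on day 4, beside 6.21% of all genes, and 11.6% and 11.3% on day 11, beside 7.05%.

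With valproic acid on day 1, 2 of the 43 S phase genes rose and 6 fell, and 1 of the 53 mitosis genes rose and 7 fell. These are 18.6% and 15.1% of the lists, close to the 15.7% of all genes called. Spc25 gave -1.63 ± 0.26, Spc24 -1.39 ± 0.19, the centromere histone gene Cenpa -1.24 ± 0.17, the thymidine kinase gene Tk1 -1.16 ± 0.19 and Gmnn, which blocks re-licensing, -0.92 ± 0.12. Of 15 further genes that restrain the cycle, Gadd45g rose by 3.31 ± 0.65 and 3 fell, among them Wee1, the kinase that holds Cdk1 inactive, at -1.40 ± 0.16. Of 20 targets of p53, 2 rose and 2 fell. These are 26.7% of the restraining genes and 20.0% of the p53 targets, beside 15.7% of all genes. With amiodarone on day 4, 4 of the 20 p53 targets rose, led by Fas (0.56 ± 0.13) and Ccng1 (0.45 ± 0.08), beside the rise of Cdkn1a. Of 12 early growth, growth factor and growth factor receptor genes, the receptor genes Egfr and Met fell, Egfr by 0.75 (SE 0.20). These are 20.0% and 16.7% of the 2 lists, beside 6.21% of all genes.

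Markers of other cells are given beside these results. With amiodarone on day 4, 0 of 12 lymphocyte and NK cell markers were called, and 8 of them had a mean below the array median in both groups. Their mean level ran from 3.06 to 3.23 with amiodarone and from 3.11 to 3.19 with PBS. Of 10 Kupffer cell markers 0 were called, with a median difference of 0.18 and levels of 5.93 to 6.34 against 5.47 to 6.77. Of 6 neutrophil and 9 endothelial markers 0 were called, beside 6.21% of all genes in this comparison. In each of the 2 groups 4 of the neutrophil markers had a mean below the array median. Of 9 hepatocyte markers 2 fell (22.2%), Fgb (-0.23 ± 0.06) and Serpina1c (-0.14 ± 0.04). So did 1 of 7 erythroid markers (14.3%), Alas2 (-0.66 ± 0.20). Of these 7, 5 had a mean below the array median over all arrays. Of 9 stellate cell and fibroblast markers 1 fell (11.1%), Reln (-0.39 ± 0.10). On day 11 of 60 mg/kg 4 of 9 hepatocyte markers fell (44.4%, beside 7.05% of all genes), among them Hnf4a (-0.36 ± 0.08). So did 1 of 7 erythroid markers (14.3%), Alas2 (-0.69 ± 0.18), and 1 of 9 endothelial markers (11.1%), Clec4g (-0.40 ± 0.07). Of 6 cholangiocyte markers 1 fell (16.7%), Cdh1 (-0.54 ± 0.16). Of 9 stellate cell and fibroblast markers 3 fell (33.3%), led by Rgs5 (-0.56 ± 0.15). In that group 0 of 6 neutrophil and 0 of 10 Kupffer cell markers were called, but the arrays differed widely. The neutrophil list's mean level ran from 2.97 to 5.86 against 2.92 to 3.53 with PBS, so at least 1 array stood high. The Kupffer list's mean level ran from 5.56 to 6.73 against 5.94 to 6.34. With valproic acid on day 1 the neutrophil genes S100a9 and S100a8 rose, by 2.42 ± 0.63 and 2.14 ± 0.59. They are 33.3% of that list, beside 15.7% of all genes. The list's mean level ran from 3.29 to 4.47 against 2.99 to 3.12 with PBS. In that group 4 of 9 hepatocyte markers were called (44.4%). Fgb (0.53 ± 0.06) and Asgr1 (0.19 ± 0.06) rose and Ttr (-0.20 ± 0.03) and Alb (-0.14 ± 0.03) fell. Of 9 stellate cell and fibroblast markers 4 were called (44.4%). Des (0.30 ± 0.11) rose, while Col3a1 (-0.53 ± 0.13), Reln (-0.38 ± 0.10) and Col1a2 (-0.37 ± 0.13) fell. Of 9 endothelial markers 1 rose (11.1%), Clec4g (0.39 ± 0.08). Of 6 cholangiocyte markers 1 fell (16.7%), Cdh1 (-0.57 ± 0.18). Of 12 lymphocyte and NK cell markers 1 fell (8.33%), the B cell gene Cd79b (-0.47 ± 0.16). On day 4 of valproic acid 6 of 10 Kupffer cell markers rose (60.0%, beside 2.36% of all genes), with a median of 0.72. In that group 1 of 9 endothelial markers, Clec4g (0.46 ± 0.08), rose too (11.1%). So did 1 of 9 stellate cell and fibroblast markers (11.1%), Dcn (0.37 ± 0.09). Of 7 erythroid markers 1 fell (14.3%), Alas2 (-0.91 ± 0.20). The part of these markers in the changes of the 56 genes was not tested.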

How the data were processed

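Liver RNA of 95 samples was measured on Affymetrix arrays. The log2 values were deposited by the authors and, per the submitters' processing notes, made with RMA (robust multi-array average); its version and the probe annotation are not given in the sources used here. Per the labels' protocols, a piece of left lateral lobe went into RNAlater, and RNA from RNeasy columns was labelled with a 3' IVT Express kit. Such summarised values compress differences of dim probe sets.

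Of 17306 probe sets, 16464 carried 1 gene symbol, 0 several and 842 none (not used here). All 16464 matched RefSeq by Entrez Gene ID. No 2 arrays were identical, and correlations between arrays ran from 0.977 to 0.996. Here limma 3.58.1 in R 4.3.3 fitted the 95 arrays with 1 mean for each of 21 groups, which leaves 74 residual degrees of freedom, and tested 32 comparisons, each adjusted over all genes, and the test was tried on simulated data. The dose slope is over the ranks vehicle, low, middle and high. Figures used matplotlib.

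The members and lists were chosen with earlier results of these data known. Members shown array by array were the 8 called ones of largest change without overlap in amiodarone days 4 and 11 and valproic acid day 1, 3 elsewhere, and a fixed set that included Mcm2, Mcm6, Rrm2, Top2a, Ccnd1, Ccne2, Cdk1 and the inhibitors; a few others were added after their values were seen, among them Cdk1 under tetracycline and Ccnb2 under amiodarone on day 1. For other lists up to 4 called genes were named. Correlations are of residuals and carry no p. Alternatives were array weights, fits restricted to the arrays compared, dim genes left out, quantile normalization, median centring, blocks of 24 sample numbers, a robust variance trend, and each array left out.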

Additional observations from a re-analysis of the deposited data

Results flagged for a closer look

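Dixon's criterion was applied to 115 sets of values. Each held 1 gene, or the median of the members relative to vehicle, on the 4 or 5 arrays of 1 group. In 5 sets 1 array stood apart from the rest, where chance gives about 1 in 20 for independent sets. These sets share arrays, and some genes were chosen because they were called. Mcm6 read 4.132 on array 053 of amiodarone on day 4, where the other 3 read 4.605 to 4.686. Mcm10 read 6.665 on array 067 of 250 mg/kg valproic acid on day 11, where the others read 8.188 to 8.4. Top2a read 2.534 on PBS array 041 of day 4, against 2.744 to 2.77. Cdkn1a read 2.62 on array 012 of amiodarone 60 mg/kg on day 11, against 2.914 to 2.946. Cdkn1c read 3.318 on array 023 of valproic acid on day 1, against 2.295 to 2.348.

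A direct limma test of day 4 against day 1 called 8 genes for the effect of a high dose. With amiodarone it was more positive on day 4 by 1.4755 for Mcm6, 1.2316 for Cdk1, 1.1499 for Ccnb2, 0.8973 for Ccna2, 0.7401 for Top2a and 0.6268 for Cdkn1a. With valproic acid it was more positive by 1.3209 for Ccnd1 and 0.3557 for Ccnd2.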

How the results depend on the processing

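No paired analysis was possible because sample numbers in the labels are unique and no number is shared between groups. No called change took the opposite sign under any of the 7 alternatives or without any array. Of the counts of members called, these moved by more than 1.5 times, and the cause was not tested unless stated. With dim genes left out, which kept 8180 genes and only 28 members, amiodarone on day 4 gave 13 (21 over all members), its difference from day 1 gave 3 (6), its dose slope 5 (3), the slope of valproic acid 6 (3), valproic acid day 11 against day 4 gave 1 (0), and amiodarone against valproic acid gave 10 (19) on day 4 and 5 (8) on day 11. In a fit of only the arrays compared, amiodarone on day 11 gave 3 (5), valproic acid at 250 mg/kg 0 (2), its slope 5, its day 4 against day 1 gave 1 (2), and amiodarone against valproic acid on day 11 gave 5. With array weights valproic acid at 250 mg/kg gave 0, and its day 11 against day 4 gave 1. Quantile normalization gave 1 for valproic acid on day 4 (2). Blocks of 24 sample numbers, not a replicate pairing, gave 1 for valproic acid on day 4, 1 at 250 mg/kg, 5 for its slope and 1 for its day 11 against day 4. Centring and the robust trend moved no count that far.

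With each array left out in turn, the count ran from 17 to 20 for amiodarone on day 4, 2 to 7 on day 11, 1 to 6 for its slope and 4 to 9 for day 4 against day 1. For valproic acid it ran from 9 to 12 on day 1, 0 to 2 on day 4, 0 to 2 at 250 mg/kg, 2 to 5 at 500 mg/kg on day 11, 2 to 5 for the slope, 1 to 3 for day 4 against day 1 and 0 to 1 for day 11 against day 4. Amiodarone against valproic acid gave 7 to 11, 17 to 20 and 5 to 10 on days 1, 4 and 11. Without array 037 the slope of valproic acid was called for 5. All other comparisons stayed at 0. Signal near background limits what the 28 dim members can show.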
